A study of Mus musculus with 6 samples.

Results

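The loci described here are those of 10 mouse genes of the granulocyte and monocyte lineage, read in the accessible chromatin of haematopoietic stem cells (HSCs). They comprise 4 transcription factors (Spi1, Cebpa, Cebpe and Irf8), 2 growth factor receptors (Csf1r and Csf3r) and 4 genes for proteins of neutrophil granules (Elane, Mpo, Prtn3 and Ctsg). Peaks of 6 ATAC-seq libraries that overlapped by at least 1 bp were merged into 82993 union regions on chromosomes 1 to 19, X and Y. The 212 regions in a member gene or within 100 kb of its span were kept, 137 of them at regulators and receptors (98 and 39) and 75 at granule genes. The genes had been chosen on these same calls and on the percentiles of fold enrichment in both groups, so these values are given as a description and no test is applied to them.

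ATAC-seq marks open DNA through a transposase that inserts sequencing adapters into it. HSCs were sorted from bone marrow as CD48-, CD150+ cells of the LSK gate (lineage-negative, Sca-1-positive, c-Kit-positive), about 5000 cells per library. All mice were wild-type C57BL/6J, and no other allele is named for either group. Both groups were injected intraperitoneally, 3 libraries coming from mice given DMSO, the solvent, and 3 from mice given tunicamycin at 2 mg/kg, a drug that blocks N-linked glycosylation in the endoplasmic reticulum. The labels give no age, no sex and no time between injection and sorting. They do not say whether the 3 libraries of a group came from separate mice, so the spread between libraries may be technical in part.

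Each library had 1 list of called peaks, from 28501 to 62478 peaks long after 109 to 138 on other sequences were left out. DMSO 1 had the longest list and DMSO 3 the shortest, and the 3 tunicamycin lists, of 44952 to 56865 peaks, lay between them. Peak lists carry no read depth. A region without a call was not detected at that library's depth, which does not make its chromatin closed. The strength of a peak is given as its percentile by deposited fold enrichment within its own list, 100 being the strongest peak. Where a library had several peaks in a region its highest was taken. Since the lists differ in length, percentiles of DMSO and tunicamycin libraries are set side by side and do not by themselves show a change. In bulk cells, a region open in fewer cells and a region less open in each cell cannot be told apart.

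Myeloid cells arise from HSCs through progenitors in which a small circuit of transcription factors acts. PU.1, the product of Spi1, and C/EBP alpha, the product of Cebpa, are needed early, IRF8 favours monocytes and dendritic cells over neutrophils, and C/EBP epsilon acts late, in neutrophil precursors. The receptors for M-CSF (Csf1r) and G-CSF (Csf3r) carry the signals for monocytes and neutrophils, and the granule proteins are made in bulk at the promyelocyte stage. Granule gene promoters are classical targets of PU.1, C/EBP, RUNX and MYB factors.

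The sequences just upstream of the genes show what the members share and where they part. They are printed because the contrast between regulators and granule genes below is larger at the genes than across the 100 kb windows. A RefSeq promoter table for the assembly GRCm38.p6 (mm10) held 7 of the 10 members. The 250 bases before each start follow, 5′ to 3′ on the gene's strand, with every match to GAGGAA, a core recognised by PU.1, in capitals.
Cebpa: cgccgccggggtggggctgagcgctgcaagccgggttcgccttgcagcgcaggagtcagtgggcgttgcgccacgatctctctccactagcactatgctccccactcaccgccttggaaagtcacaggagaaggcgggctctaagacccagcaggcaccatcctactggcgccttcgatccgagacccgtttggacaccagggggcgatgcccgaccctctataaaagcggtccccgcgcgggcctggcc
Irf8: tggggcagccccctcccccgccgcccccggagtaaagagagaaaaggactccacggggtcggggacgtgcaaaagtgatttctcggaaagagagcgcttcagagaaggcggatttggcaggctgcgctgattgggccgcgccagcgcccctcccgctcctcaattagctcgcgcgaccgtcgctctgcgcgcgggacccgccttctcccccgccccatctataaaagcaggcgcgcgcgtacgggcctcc
Csf3r: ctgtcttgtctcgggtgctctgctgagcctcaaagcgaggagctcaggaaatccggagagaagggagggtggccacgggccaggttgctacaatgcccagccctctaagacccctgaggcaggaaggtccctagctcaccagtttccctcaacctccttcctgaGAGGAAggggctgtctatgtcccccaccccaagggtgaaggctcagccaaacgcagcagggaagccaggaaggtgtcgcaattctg
Elane: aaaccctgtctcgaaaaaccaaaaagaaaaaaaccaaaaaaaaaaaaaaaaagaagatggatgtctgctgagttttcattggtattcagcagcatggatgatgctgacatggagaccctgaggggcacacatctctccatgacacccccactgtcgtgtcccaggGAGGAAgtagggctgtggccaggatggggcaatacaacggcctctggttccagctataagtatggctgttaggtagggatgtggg
Mpo: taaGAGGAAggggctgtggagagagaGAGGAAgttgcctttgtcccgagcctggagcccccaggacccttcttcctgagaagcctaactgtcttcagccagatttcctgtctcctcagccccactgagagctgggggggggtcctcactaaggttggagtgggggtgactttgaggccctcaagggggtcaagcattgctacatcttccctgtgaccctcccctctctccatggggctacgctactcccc
Prtn3: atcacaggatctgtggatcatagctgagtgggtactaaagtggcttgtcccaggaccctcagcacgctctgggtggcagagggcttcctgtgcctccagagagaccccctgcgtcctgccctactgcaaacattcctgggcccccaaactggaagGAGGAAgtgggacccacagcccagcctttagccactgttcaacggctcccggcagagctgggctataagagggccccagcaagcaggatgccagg
Ctsg: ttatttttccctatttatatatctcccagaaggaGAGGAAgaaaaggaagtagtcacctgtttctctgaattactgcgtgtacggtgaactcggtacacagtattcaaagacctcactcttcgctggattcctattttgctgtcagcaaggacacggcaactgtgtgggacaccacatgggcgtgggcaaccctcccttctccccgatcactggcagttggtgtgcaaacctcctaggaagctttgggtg
The Cebpa sequence lies at chr7:35119043-35119292 on the plus strand, that of Irf8 at chr8:120736108-120736357 on the plus strand, and that of Csf3r at chr4:126024409-126024658 on the plus strand. The Elane sequence lies at chr10:79886062-79886311 on the plus strand, that of Mpo at chr11:87793534-87793783 on the plus strand, that of Prtn3 at chr10:79879417-79879666 on the plus strand, and that of Ctsg at chr14:56102575-56102824 on the minus strand. GAGGAA was searched on both strands and was present in 5 of the 7, including all 4 granule genes and Csf3r, against 22.2% of 21263 promoters of that length. It began 86 bases upstream of the start in Csf3r, 85 in Elane, 95 in Prtn3, 216 in Ctsg, and 247 and 224 in Mpo. All 6 of these matches were on the gene's own strand. The letters were in neither the Cebpa nor the Irf8 window.

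Of 5 other motifs searched on both strands, AACNGT, a MYB core, was in Mpo, Prtn3 and Ctsg and in 20.1% of all promoters. TGTGGT, a RUNX core, was in Ctsg and in 12.4% of all. TTGNNNAA, a C/EBP half-site pair, was in none of the 7 and in 30.8% of all. The GATA factor core AGATAA (8.81% of all promoters) was in none of the 7 either. Nor was TGANTCA, an AP-1 site found in 6.13% of all. No match to one motif overlapped a match to another in these sequences. The base composition differed among the members, with 67.2% G and C in Irf8, 66.4% in Cebpa, 60.4% in Prtn3, 60.0% in Csf3r, 59.2% in Mpo, 48.8% in Ctsg and 47.6% in Elane. These matches describe letters within a short window and say nothing of binding.

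At the genes themselves, regulators and granule genes stood apart by the count of regions called in all 6 libraries. A region in the gene or within 1 kb of it was called in all 6 libraries at 3 of the 4 regulators (Spi1, Cebpa and Irf8), at 1 of the 2 receptors (Csf1r) and at 0 of the 4 granule genes. Among 21887 protein-coding genes the share was 54.4%. No call in any library lay in or within 1 kb of Cebpe or Elane. Mpo and Prtn3 each had a call in 5 libraries and none in DMSO 3, the shortest list, and Ctsg had one in 2 libraries. A count over all 6 libraries is limited by that list. The measure covers the whole span, here and for the gene lists below, so a long gene offers more sequence, and span was not adjusted for. Spans were 33.4 kb at Spi1, 2.6 at Cebpa, 1.8 at Cebpe and 20.3 at Irf8. They were 25.6 kb at Csf1r and 21.5 at Csf3r, and 1.9 at Elane, 10.6 at Mpo, 3.5 at Prtn3 and 2.7 at Ctsg.

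**Figure D1:**
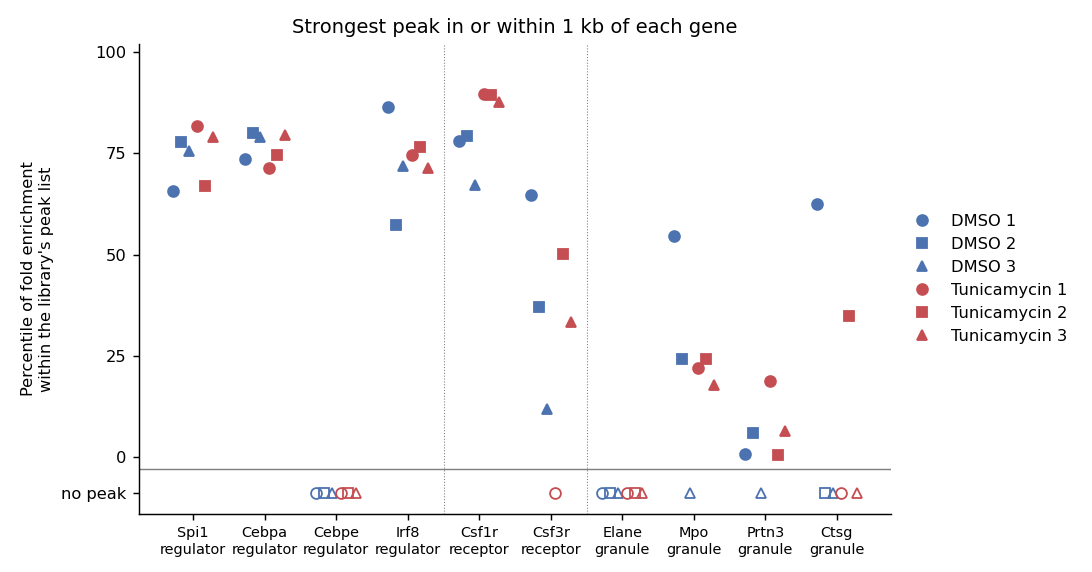
Percentile of the strongest peak in or within 1 kb of each member gene (vertical axis, percentile of fold enrichment within the library's list), with 1 point per library, 3 DMSO and 3 tunicamycin. Spi1, Cebpa, Irf8 and Csf1r sit between 57.4 and 89.5 in all 6 libraries, Mpo between 17.9 and 54.6 in 5 libraries, and Cebpe and Elane have no peak.

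Cebpa encodes C/EBP alpha, without which granulocyte and monocyte progenitors do not form. Its start lay under a region of 1271 bp on chromosome 7 (35118422 to 35119692) that was called in every library. The percentiles were 73.7, 79.9 and 79.1 in the DMSO libraries and 71.3, 74.5 and 79.6 in the tunicamycin libraries. The groups overlapped, and the range over the 6 libraries was narrow. The summit of the strongest peak lay at -55 to -144 bases from the start, upstream and inside the sequence printed above, and deposited folds were 7.11 to 8.32.

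Irf8 encodes a factor of the interferon regulatory family that directs progenitors towards monocytes and dendritic cells. The region at its start (chromosome 8, 120735886 to 120736740) was called in every library and had the highest mean percentile of the 32 regions in its window. Its percentiles were 86.5, 57.4 and 71.9 in DMSO and 74.6, 76.6 and 71.4 in tunicamycin libraries, so the DMSO libraries spanned the tunicamycin ones. Summits lay at -20 to -64 bases from the start. A second region inside the gene (120751870 to 120752418), called in 4 libraries, lay between percentiles 15.1 and 38.4, and one more was called in 1 library.

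Spi1 encodes PU.1, an ETS factor needed for monocytes and neutrophils and also for B cells. The table used gives no strand for Spi1, Cebpe or Csf1r, so positions at these genes are counted from the lower end of the span. Of 8 regions inside Spi1 (chromosome 2, 91082374 to 91115759), 2 were called in all 6 libraries. The first (91082858 to 91083600), near the lower end, had percentiles of 56.0, 77.8 and 75.6 in DMSO and 69.1, 58.5 and 67.9 in tunicamycin libraries. The second (91096443 to 91097308), 14.5 kb in, had percentiles of 65.6, 72.3 and 53.6 in DMSO and 81.8, 66.9 and 79.1 in tunicamycin libraries. The groups overlapped at both, and the means of the second, 63.8 ± 9.43 and 75.9 ± 7.92 (SD, n = 3 each), differed by little more than the spread between libraries. A region at 91101442 to 91101719 was called in DMSO 1 and every tunicamycin library, at percentiles of 19.5 to 41.7, and the other 5 regions inside the gene were called in 1 or 2 libraries.

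Cebpe, which encodes the factor needed late in granulocyte maturation, had no call in its span of 1.81 kb or within 1 kb of it. The closest regions were 1.77 kb (called in 4 libraries) and 2.55 kb away (5 libraries). A region 4.03 kb away (chromosome 14, 54705695 to 54706329), for which Cebpe is the nearest protein-coding gene, was called in all 6. Its percentiles were 79.0, 82.7 and 81.6 in DMSO and 78.6, 88.6 and 82.2 in tunicamycin libraries. Cebpe thus had a strong, steady neighbouring region in both groups while none was called at the gene.

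Csf1r encodes the receptor for M-CSF and IL-34 that macrophages need, and the gene is known for an enhancer in an early intron. A region of 1432 bp inside its span (chromosome 18, 61107668 to 61109099), centred 2.81 kb from the lower end, was called in all 6 libraries. The percentiles were 77.9, 79.2 and 67.2 in DMSO and 89.5, 89.3 and 87.6 in tunicamycin libraries, so every tunicamycin library lay above every DMSO library. The means were 74.8 ± 6.57 and 88.8 ± 1.04 (SD, n = 3 each), a difference of 14.1 percentile points. Deposited folds were 6.23 to 8.81 in DMSO and 9.62 to 10.03 in tunicamycin libraries. Exons and introns are not distinguished in the table used, so whether the region lies at the known enhancer is not given here.

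The other regions at the Csf1r gene showed no such separation. A region 0.187 kb beyond the upper end (61131326 to 61132242), nearest to Hmgxb3, was called in all 6 libraries with percentiles of 42.9 to 55.9 in DMSO and 10.5 to 58.9 in tunicamycin libraries. A region inside the gene (61120588 to 61120985) was called in DMSO 1 and 2 and tunicamycin 1, at 65.1 to 72.1. The remaining regions inside the span, 2 in number, were each called in 1 tunicamycin library.

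Csf3r encodes the G-CSF receptor, the main growth factor receptor of neutrophils. The region at its start in the promoter table (chromosome 4, 126024330 to 126024878) was called in 5 libraries. The percentiles were 64.8, 37.0 and 11.9 in DMSO libraries and 50.1 and 33.3 in tunicamycin 2 and 3, with no call in tunicamycin 1. The DMSO libraries alone covered the range of all 5, and the summits lay from -77 to 50 bases from the start. The GAGGAA match in the sequence above begins 86 bases upstream.

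Mpo encodes myeloperoxidase, which makes hypochlorous acid in neutrophil granules. The region at its start (chromosome 11, 87793275 to 87794225) was called in 5 libraries, at percentiles of 54.6 and 24.2 in DMSO 1 and 2 and of 22.0, 24.1 and 17.9 in tunicamycin libraries. The value of DMSO 1 stood above the other 4, which lay close together. Summits were spread from -288 to 299 bases from the start, a wider spread than at Cebpa or Irf8. One other region inside the gene was called, in tunicamycin 1.

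Elane (neutrophil elastase), Prtn3 (proteinase 3) and Ctsg (cathepsin G) encode related serine proteases of the same granules. Elane and Prtn3 are neighbours on chromosome 10, and their 100 kb windows overlap. The closest region to Elane lay 1.21 kb away, was nearest to Cfd, and was called in DMSO 1 and tunicamycin 2. Prtn3 had 1 region in its span, called in DMSO 1 at a percentile of 0.68, and another 0.607 kb away called in 4 libraries at percentiles of 0.382 to 18.7. Apart from the 18.7, in tunicamycin 1, these were among the weakest peaks of their lists, at percentiles of 0.382 to 6.52.

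A stronger region lay 1.33 kb upstream of Prtn3 (79877684 to 79878333), and it was called in all 6 libraries. The percentiles were 45.0, 49.3 and 20.8 in DMSO and 46.3, 44.3 and 32.2 in tunicamycin libraries, and the groups overlapped. It was 1 of the 11 regions that had a granule gene as nearest gene, and the sole one of those called in all 6 libraries. At Ctsg, the start (chromosome 14, 56102426 to 56102760) was called in DMSO 1, at percentile 62.6, and in no other library. A region 0.475 kb outside Ctsg was called in DMSO 1 and tunicamycin 2, at 24.3 and 34.9. The Ctsg window held 6 regions, none called in all 6 libraries.

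**Figure D2:**
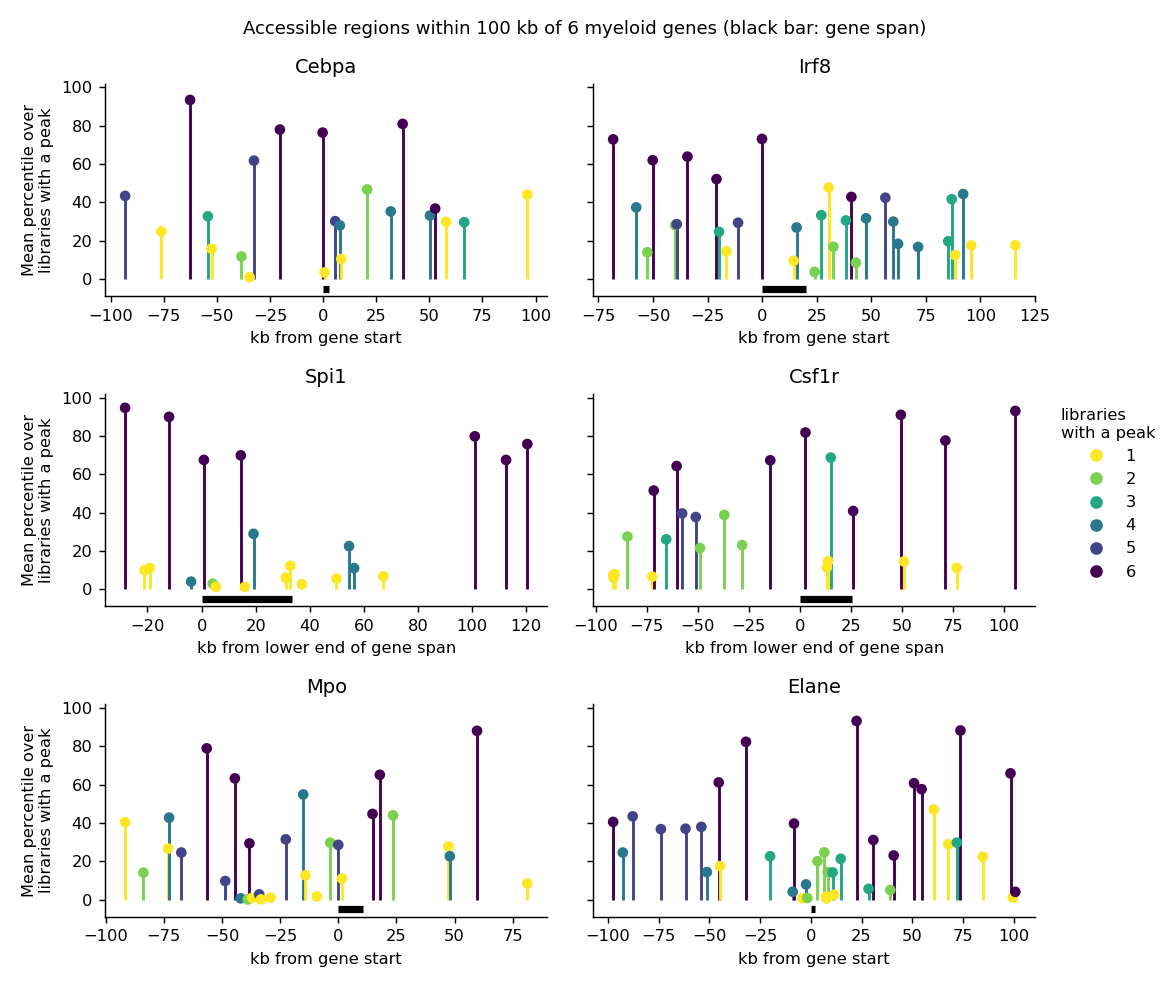
Union regions around Cebpa, Irf8, Spi1, Csf1r, Mpo and Elane. The horizontal axis is distance in kb from the gene start, or from the lower end of the span for Spi1 and Csf1r, the vertical axis is the mean percentile over the libraries that called the region, colour gives the number of libraries, and the black bar is the gene. Regions called in all 6 libraries lie on Cebpa, Irf8, Spi1 and Csf1r, whereas none lies on Mpo or Elane.

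Over the 250 bases upstream of the start, 45.8% of 17492 genes with a promoter sequence lay under peaks of all 6 libraries and 40.7% under peaks of none. Among the 7 members with a sequence, Cebpa and Irf8 lay under peaks of 6 libraries, Csf3r and Mpo of 5, Ctsg of 1, and Elane and Prtn3 of 0. The GAGGAA letters were thus present both in windows under peaks of most libraries (Csf3r, Mpo) and in windows under none (Elane, Prtn3), and absent from the windows under peaks of every library.

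Across the full 100 kb windows the contrast between regulators and granule genes was small. Regions at regulators and receptors were called at 51.8% ± 24.4 in DMSO and 65.0% ± 9.57 in tunicamycin libraries (SD, n = 3 each). Those at granule genes were called at 53.3% ± 23.1 and 57.8% ± 4.07, and all union regions at 50.5% ± 20.8 and 58.5% ± 7.70. The percent called thus followed the length of each library's list in every set. Over the 6 libraries, the regulators and receptors exceeded the granule genes by 2.84 percentage points, and by -0.0714 points, in the opposite direction, without DMSO 1. Of the regions at regulators and receptors 38 (27.7%) were called in all 6 libraries, of those at granule genes 19 (25.3%), and of all regions 25.1%.

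**Figure D3:**
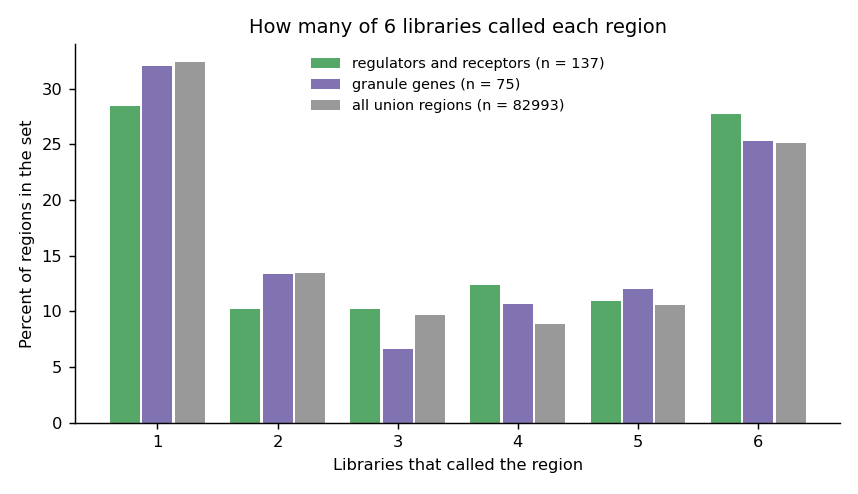
Percent of regions (vertical axis) called in 1 to 6 libraries (horizontal axis) at regulators and receptors (137 regions), at granule genes (75) and among all 82993 union regions. Called in 1 library were 28.5%, 32.0% and 32.4%, and called in all 6 were 27.7%, 25.3% and 25.1%, so the distributions look much alike.

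Per library, 79.2%, 44.3% and 33.5% of the 212 regions were called in DMSO 1, 2 and 3, and 55.2%, 70.3% and 61.8% in tunicamycin 1, 2 and 3. The tunicamycin libraries lay inside the range of the DMSO libraries. The group means differed by 10.1 percentage points, by 27.5 without DMSO 1, by 0.626 without DMSO 3, and by 6.11 and 6.35 without DMSO 2 and tunicamycin 2. For all union regions the corresponding shares were 73.6%, 44.5% and 33.3% in DMSO and 52.6%, 67.2% and 55.7% in tunicamycin libraries.

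In strength, called regions at granule genes had a lower median percentile than those at regulators and receptors in each of the 6 libraries. The granule set covers few loci. Of its 75 regions 29 lay in the Mpo window and 6 in that of Ctsg, and all others in the overlapping Elane and Prtn3 windows. The median percentile of called regions at regulators and receptors was 57.3 ± 11.5 in DMSO and 46.7 ± 5.59 in tunicamycin libraries (SD, n = 3 each). DMSO 1, at 44.0, lay inside the tunicamycin range of 42.8 to 53.1. At granule genes the median was 37.8 ± 9.62 and 33.7 ± 2.75, and among all regions it was 51.1 in both groups. Among regions called in all 6 libraries, the median of the mean percentile was 77.0 at regulators and receptors, 61.1 at granule genes and 72.3 over all regions. Over all 212 regions the medians were 40.4, 55.5 and 61.4 in DMSO 1, 2 and 3 and 45.0, 39.2 and 40.9 in tunicamycin 1, 2 and 3. DMSO 1, the longest list, thus lay among the tunicamycin libraries, and the shorter lists of DMSO 2 and 3 had the highest medians. The group means were 52.4 ± 10.9 in DMSO and 41.7 ± 2.99 in tunicamycin libraries, a difference of -10.7 points. The 57 regions called in all 6 libraries went the other way, with medians of the mean percentile of 70.7 in DMSO and 75.2 in tunicamycin libraries. Ranked among the 20810 regions called in all 6, the median of these 57 differed by -3.54 points. By the mean over 6 libraries, the granule windows thus lay below, and the pooled regulator and receptor windows above, all regions called in all 6. Taken apart, regulators were at 75.8 and receptors at 81.8. In DMSO libraries alone regulators, receptors and all regions were at 72.1, 76.0 and 69.5, and in tunicamycin libraries at 75.9, 88.8 and 76.1. Over all called regions the median percentile of regulators was 55.2 ± 12.3 in DMSO and 39.3 ± 2.25 in tunicamycin libraries (SD, n = 3 each). It was 41.1, 61.2 and 63.4 in DMSO 1, 2 and 3, so DMSO 1 lay inside the tunicamycin range of 37.2 to 41.7. For receptors the means were 66.7 ± 2.69 in DMSO and 67.3 ± 6.71 in tunicamycin libraries.

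Many regions in the windows were nearer to other genes. A member was the nearest protein-coding gene for 68 of the 212 regions, 57 at regulators and receptors and 11 at granule genes. Irf8 was nearest to 25 of the 32 regions in its window, Spi1 to 9 of 21, Cebpa to 8 of 22 and Csf3r to 7 of 15. Cebpe and Csf1r were each nearest to 4, of 23 and 24, and for the granule genes the counts were 5 of 37 (Prtn3), 3 of 29 (Mpo), 3 of 6 (Ctsg) and 0 of 39 (Elane). Irf8 thus had a wide neighbourhood to itself, and Elane had none. Of the 57 regions nearest to a regulator or receptor 9 were called in all 6 libraries, and of the 11 nearest to a granule gene 1 was.

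The region with the highest mean percentile lay at the member's own start at Irf8 and Ctsg (the latter called in DMSO 1 alone). In the other windows it lay nearest to another gene. These were Psmc3 in the Spi1 window (91053644 to 91054568), Cebpg in that of Cebpa (35055927 to 35057420), Psmb5 in that of Cebpe (54617517 to 54618417) and Slc26a2 in that of Csf1r (61210883 to 61211882). They were Lsm10 in that of Csf3r (126095861 to 126096918), Med16 in those of Elane and Prtn3 (79908224 to 79909511), and Mks1 in that of Mpo (87852966 to 87853871). All of these 7 were called in all 6 libraries, with single percentiles of 73.0 to 99.8.

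Some distal regions of Cebpa and Irf8 were singled out after their values were seen, because both genes are known for distant enhancers. A region centred 37.4 kb downstream of the Cebpa start (35156358 to 35157057), at about the distance of an enhancer known for this gene in mouse myeloid progenitors and nearest to Slc7a10, was called in all 6 libraries. Its percentiles were 84.8, 72.8 and 88.0 in DMSO and 80.5, 72.5 and 87.0 in tunicamycin libraries, overlapping between groups. A region 20.0 kb upstream of the gene (35098562 to 35099323) was likewise called in all 6, at 58.4 to 85.7. Cebpa thus had strong regions on both sides as well as at its start.

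At Irf8, a region 49.8 kb upstream of the gene (120685877 to 120686591), nearest to Cox4i1, was called in all 6 libraries. Its percentiles were 80.6, 55.2 and 10.7 in DMSO and 77.0, 72.8 and 75.4 in tunicamycin libraries, DMSO 3 standing far below the others. A region 20.7 kb upstream (120715199 to 120715707) was called in all 6 with percentiles of 36.8 to 87.0 in DMSO and 19.5 to 57.3 in tunicamycin libraries. A region centred 56.5 kb downstream of the start (120792531 to 120793115) was called in 5 libraries at 22.2 to 59.9, and one 32.7 kb downstream (120768801 to 120769233) in tunicamycin 2 and 3 alone, at 15.8 and 17.8. Neither of these downstream regions was called in all 6 libraries, whereas a region centred 40.9 kb downstream, described below, was.

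Calls that fully separated the groups were rare. Of the 212 regions, 1 was called in all 3 tunicamycin and in 0 DMSO libraries, while 0.683% of all union regions met that description. The reverse was met by 0 of the 212 and by 0.0976% of all regions. The single region lay 64.7 kb beyond Irf8 (chromosome 8, 120821439 to 120821876), with percentiles of 9.14, 39.2 and 10.6 and folds of 3.63, 4.90 and 3.75 in tunicamycin 1, 2 and 3. All 3 peaks were below the middle of their lists. With peaks of a q-value of at most 1e-05 it was called in 2 tunicamycin libraries and was no longer separated, and in lists of equal length it was called in none. Leaving out 1 library eases the criterion, and gave 13 such regions without DMSO 1 (5.77% of all regions), 5 without tunicamycin 1 (2.23% of all), 3 without tunicamycin 3 (1.54%) and 2 without DMSO 2 (0.956%).

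A pattern of calls in DMSO 1, the longest list, and the 3 tunicamycin libraries, without DMSO 2 and 3, was shown by 12 of the 212 (5.66%), against 4.39% of all regions. They were 10 of the 98 at regulators, 0 of the 39 at receptors and 2 of the 75 at granule genes.

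Among the 57 member regions called in all 6 libraries, 4 had every tunicamycin percentile above every DMSO percentile, against 7.42% of the 20810 regions called in all 6. The reverse held for 0 of the 57 and for 1.59% of the 20810. The 4 were the Csf1r region described above, a region near Irf8, and a distal region each in the Mpo and Spi1 windows. When percentiles were taken among the 20810 regions themselves, which gives all libraries lists of the same length, 3 member regions were higher and 4 lower, against 4.66% and 4.55% of the 20810. The balance of higher and lower regions at these loci therefore moved with the scale. Leaving out 1 library, which eases the criterion, gave 13 higher and 3 lower member regions without DMSO 1, against 30.6% and 4.50% of all regions called in every library left. Without DMSO 2 there were 8 higher and 2 lower (11.6% and 4.16% of all), and without DMSO 3 there were 8 higher and 6 lower (9.54% and 7.46% of all). Without tunicamycin 1, 2 or 3 there were 6, 8 and 6 higher (14.6%, 10.8% and 13.3% of all) and 1 lower each (3.22%, 4.44% and 2.93% of all).

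**Figure D4:**
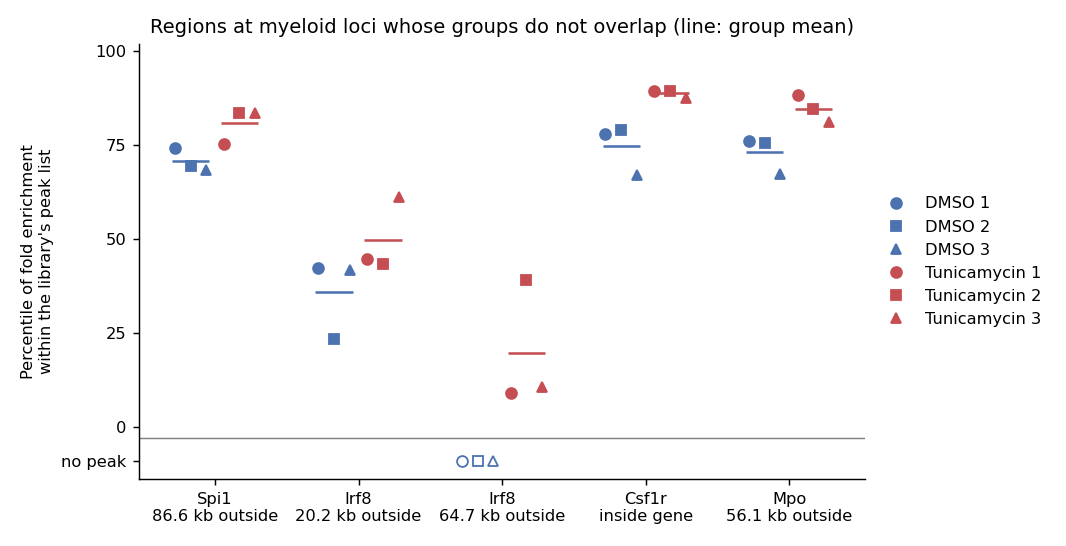
Percentile of fold enrichment (vertical axis) in each DMSO and tunicamycin library for the 4 member regions without overlap between groups, and for the separated region beyond Irf8. The Csf1r region runs from 67.2 to 79.2 in DMSO and from 87.6 to 89.5 in tunicamycin libraries, and the Irf8 region called in all 6 from 23.4 to 42.3 and from 43.4 to 61.2.

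The region inside Csf1r was without overlap under every alternative that changed the peaks or their ranks, with DMSO percentiles of 45.3 to 63.0 and tunicamycin percentiles of 72.1 to 77.7 when ranked among the 20810 regions. The region in the Mpo window (87736682 to 87737700), 56.1 kb from Mpo and nearest to Supt4a, had percentiles of 76.3, 75.6 and 67.4 in DMSO and 88.4, 84.7 and 81.1 in tunicamycin libraries. Its groups also kept apart under every alternative that changed the peaks or their ranks, in some by a narrow margin. With lists of equal length the highest DMSO percentile was 67.4 and the lowest tunicamycin percentile 68.3. Ranked among the 20810 regions these were 57.2 and 59.1. It lies by another gene and describes the window more than Mpo.

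The Irf8 region (120776850 to 120777677), centred 40.9 kb downstream of the start, had percentiles of 42.3, 23.4 and 41.8 in DMSO and 44.7, 43.4 and 61.2 in tunicamycin libraries. The means were 35.8 ± 10.8 and 49.7 ± 9.91 (SD, n = 3 each), and ranked among the 20810 regions the difference was 3.05 points with overlapping groups. The Spi1 region (91202355 to 91203216), 86.6 kb away and nearest to Acp2, had percentiles of 74.3, 69.4 and 68.5 in DMSO and 75.3, 83.5 and 83.7 in tunicamycin libraries. It overlapped between groups with lists of equal length, by −log10 q-value and by the common rank, and with 50% cover of the region 1 DMSO call was lost. The Irf8 region also overlapped with a q-value of at most 1e-05. It was called in 1 DMSO library with lists of equal length, and in 2 tunicamycin libraries and 1 DMSO library with 50% cover. By −log10 q-value its groups stayed apart.

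Other genes of the same pathways were counted in the same way. A region in or within 1 kb of the gene was called in all 6 libraries at 8 of 10 other myeloid regulators (Gfi1, Cebpb, Cebpd, Klf4, Irf4, Myb, Runx1 and Zeb2), while Egr2 had no region. The count was 5 of 10 for other myeloid receptors (Csf2ra, Csf2rb, Il6ra, Fcgr3 and Cx3cr1). It was 3 of 14 for other granule and effector genes (Mmp9, Serpinb1a and Ctsc), and Camp, Ngp, S100a8, Lcn2 and Chil3, all products of maturing neutrophils or macrophages, had no region. For all protein-coding genes the share was 54.4%, so by this count both regulator lists lay above it and both granule gene lists below it. The receptor lists, at 50.0% each, lay below it as well.

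**Figure D5:**
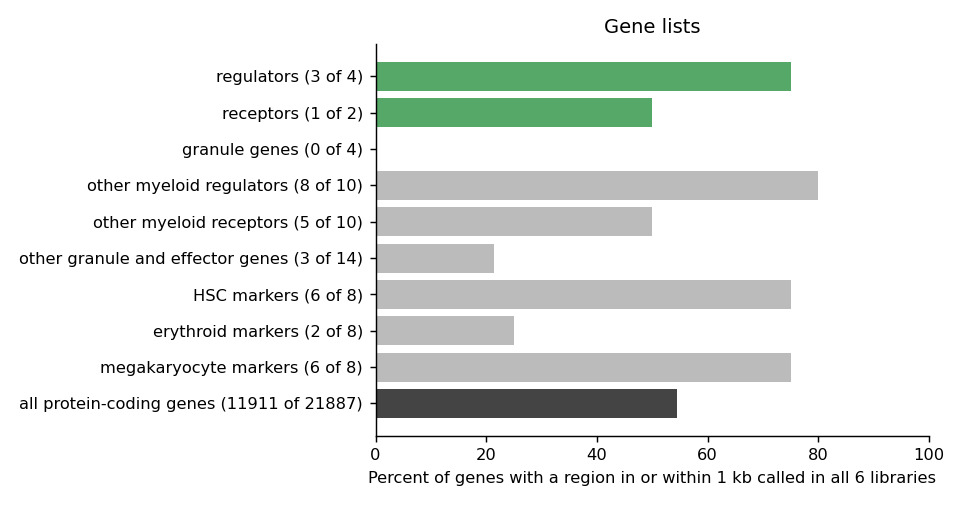
Percent of the genes in each list (horizontal axis) with a region in or within 1 kb of the gene called in all 6 libraries, with the share of all 21887 protein-coding genes, 54.4%, for comparison. Regulators, HSC markers and megakaryocyte genes lie above that share, and receptors, granule genes and erythroid genes below it.

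The median over genes of the strongest percentile in or within 1 kb, with 0 where no region was called, was 72.5 in DMSO and 74.7 in tunicamycin libraries for the 4 regulators. It was 56.3 and 58.3 for the 2 receptors, and 11.5 and 10.1 for the 4 granule genes. The same medians were 11.5 and 18.4 for the 14 other granule and effector genes and 52.4 and 62.5 for all protein-coding genes. The 10 other myeloid regulators, at 47.2 and 57.9, lay below all protein-coding genes in both groups, and the 10 other myeloid receptors were at 42.3 and 63.7. In both groups of libraries the median of the 4 member regulators thus lay above that of all protein-coding genes, and the granule genes' median lay below it. Cebpe, among these 4, had no region and counted as 0. The higher median did not extend to the other regulators.

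The labelled cell type was checked against its markers by the same measure. Of 8 HSC genes, Hlf, Mecom, Procr, Kit, Meis1 and Gata2 had a region called in all 6 libraries, Slamf1 (CD150) had regions in 3 and Ly6a (Sca-1) had none, although both proteins were used in the sort. Megakaryocyte genes reached 6 of 8, with none at Ppbp. Erythroid genes reached 2 of 8 (Klf1 and Epor), with none at Hba-a1, Hbb-bs, Alas2 or Slc4a1.

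The gene most like each member was sought among 42 other myeloid and HSC genes, by the mean absolute difference over the 6 libraries in the strongest percentile in or within 1 kb. Hlf was closest to Spi1 (6.81 points) and to Cebpa (6.52 points). Il6ra was closest to Irf8 (4.03 points), and Runx1 to Csf1r (4.26 points). Cxcr2 was closest to Ctsg (5.67 points) and to Csf3r (11.4 points), and Batf3 to Mpo (10.3 points). Cebpe, Elane and Prtn3 were closest to 7 genes without any region, at 0, 0 and 5.38 points. These likenesses are over 6 libraries that share their list lengths.

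At the limit of 100 kb, the farthest region kept lay 98.742 kb from Elane (79986958 to 79987380, nearest to Cnn2), called in all 6 libraries at percentiles of 0.109 to 9.52. The nearest region left out lay 101.466 kb from Irf8 (120634304 to 120634892) and was called in all 6 at 41.6 to 77.2.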

How the data were processed

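Open chromatin was measured by ATAC-seq in 3 DMSO and 3 tunicamycin libraries, grouped by the labels' treatment field. Per the submitters' processing notes the build was mm10 and the tools were Bowtie2 2.2.9, MACS2, Picard, featureCounts and Trim Galore 0.4.4. Their settings, the read filters and any transposase shift are not given in the sources. Peaks were called by library, 1 deposited list each. The authors deposited for each peak its q-value and p-value as −log10, a fold enrichment (ratio), a score for display and a summit. The largest q-value in a list was 0.0482 to 0.04999. These are each peak's own values and served to rank and filter peaks inside 1 list. Fold enrichments ran from 1.68 to 31.1.

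Overlapping peaks of chromosomes 1 to 19, X and Y were joined across libraries, with the same 82993 regions from bedtools 2.31.1. A region counted as called by a library that had a peak inside it. Percentiles are ranks by fold, ties averaged. Gene spans came from a RefSeq table for GRCm38.p6 with 21887 protein-coding genes and no strand. Strand and start came from the promoter table. Nearest means nearest span. The members and lists were chosen with earlier results of these data known. All members were named, with the regions in or within 1 kb of the gene, the region of highest mean percentile, every separated region, every region without overlap, and the most alike gene. Regions chosen after their values were seen are named as such in the text.

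Alternatives were a q-value of at most 1e-05, lists shortened to the 28501 peaks of highest −log10 q, 50% cover of a region, a distance of 10 kb, nearest genes, percentiles of −log10 q, ranks among regions called in all 6 libraries, and each library left out. No test was made, since the members were chosen on these values, and 3 libraries against 3 could reach a two-sided exact p of 0.10 at the smallest. Merging and calls were tested on simulated data. The tools were pandas 2.3.3, NumPy 2.4.6 and matplotlib 3.10.9 in Python 3.11.15. The result of a lymphoid marker list is not reported here.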

Additional observations from a re-analysis of the deposited data

How the results depend on the processing

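Of the 34 recomputed summary values other than those with 1 library left out, 21 moved by less than 1 SD between libraries or, for counts, stayed within 1.5 times, and 13 moved further. That SD is wide. The difference in percent of regions called, 10.1 points as reported, was 3.42 with lists of equal length, and the excess of regulators and receptors over granule genes, 2.84 points, was 5.51 with a q-value of at most 1e-05, 5.30 with lists of equal length and 9.28 with a member as nearest gene. The single separated region became 0 with a q-value of at most 1e-05 (0.722% of all regions), with lists of equal length (0.790%) and within 10 kb. Regions without overlap, 4 as reported, numbered 7 with lists of equal length (4 higher and 3 lower, against 4.38% and 3.91% of all regions called in all 6) and 7 by rank among regions called in all 6 libraries (3 higher and 4 lower, 4.66% and 4.55% of all). They numbered 8 by −log10 q-value (7 higher and 1 lower, 6.66% and 0.759% of all), 2 higher with 50% cover (7.39% of all), and, with the background as reported, 2 with a member as nearest gene and 1 within 10 kb. Regions called in all 6 libraries, 57 as reported, numbered 37 with 50% cover, 11 within 10 kb and 10 with a member as nearest gene. Within 10 kb the regulators and receptors exceeded the granule genes by 10.5 percentage points. With 1 library left out, separated regions ran from 1 to 13, regions without overlap from 7 to 16, and the excess of regulators and receptors over granule genes from -0.0714 percentage points (without DMSO 1) to 3.94. Leaving out a library eases both criteria, so these counts are not comparable with the reported ones. The difference in percent of regions called between groups ran from 0.626 to 27.5 points, and that in median percentile, -10.7 as reported, from -16.9 to -6.34. No paired analysis was possible because the values come from no test, and the labels give same-numbered libraries no shared mouse, batch or day. List length limits every call, a weak region being within reach of the long lists first, and the peak lists do not give the reads behind a region.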
